A study of Mus musculus with 9 samples.

Results

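Voltage-gated sodium and calcium channels open when the membrane depolarises, and the genes of their subunits were followed in mouse brain 72 hours after intracerebral haemorrhage (ICH). Members were taken by a rule on gene names, chosen with earlier results of these data known. They are the rows of the deposited table whose gene name is Scn with a number and the letter a or b, or begins with Cacna, Cacnb or Cacng and a number. The rule took 40 of 35112 genes, of which 14 encode sodium channel subunits and 26 belong to the calcium channel subunit families. Members without a count in any library numbered 0. Counts sufficed for a test in 39 members, and the member left untested was Scn4a, the sodium channel pore of skeletal muscle, with 24 estimated counts in 3 libraries. A mean FPKM of at least 1 over the 9 libraries was reached by 29 members, and 11 lay under 1. FPKM are fragments per kilobase of transcript, scaled to the sequenced fragments of the library, so levels can be compared between genes.

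The mice were wild-type C57BL/6, with 3 animals in each of 3 groups. The ICH+P7C3-A20 mice had a haemorrhage and received P7C3-A20, an aminopropyl carbazole, the ICH mice had a haemorrhage, and the sham mice had a control treatment. Polyadenylated RNA was sequenced from brain at 72 hours in every group. The labels name neither the brain region or hemisphere nor the dose, the vehicle, the age or sex of the animals or the way the bleeding was produced.

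A sodium channel is a large pore protein, the alpha subunit, with smaller beta subunits that tune its gating. Sodium channels are dense at the axon initial segment, where the action potential starts. A calcium channel is an alpha1 pore with an extracellular alpha2delta and a cytoplasmic beta subunit, both of which carry the pore to the membrane. L-type pores couple activity to gene expression, P/Q-, N- and R-type pores drive transmitter release, and T-type pores set burst firing. Most brain members of the gamma family are known mainly as auxiliary subunits of AMPA-type glutamate receptors (TARPs). In brain most of these genes are used chiefly by neurons.

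The libraries held 51537047 to 63324728 estimated counts, and mitochondrially encoded transcripts took 9.14% to 18.5% of them. Libraries of 1 group correlated at 0.959 to 0.973 across genes, and libraries of different groups at 0.927 to 0.967. All 14 pan-neuronal markers had counts in every library, and no marker of cortical or striatal neurons or of microglia was at 0 in any library. The library ICH+P7C3-A20 1 stood apart by cortical excitatory neuron markers, which summed to 546 FPKM, against 326 and 347 FPKM in ICH+P7C3-A20 2 and 3, and by oligodendrocyte markers at 712 FPKM, against 1748 and 1515 FPKM. Sham 3 had thalamic and hypothalamic markers at 18.6 FPKM, against 112 and 180 FPKM in sham 1 and 2. ICH 2 had them at 134 FPKM, against 33.7 and 33.0 FPKM in ICH 1 and 3. Choroid plexus markers spread widely within every group, with sums of 46.2 to 1611 FPKM in ICH+P7C3-A20, 17.6 to 2385 FPKM in ICH and 12.3 to 408 FPKM in sham. Every count of called members below was also taken without each library of the groups compared.

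Sodium beta subunits and TARPs were among the most abundant members, with Scn4b at a mean of 105.6 FPKM over all libraries, Cacng7 at 58.3 and Scn2b at 37.2. Pore subunits were lower, led by Scn8a at 12.2, Scn2a at 11.8, Cacna1e at 10.4 and Cacna1h at 9.66 FPKM. The 11 members under 1 FPKM included Scn9a, Cacna2d4, Cacng1, Scn7a, Cacna1s, Cacng6, Scn11a, Cacna1f, Scn10a and Scn4a, several of which are best known from sensory neurons, retina or skeletal muscle.

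**Figure D1:**
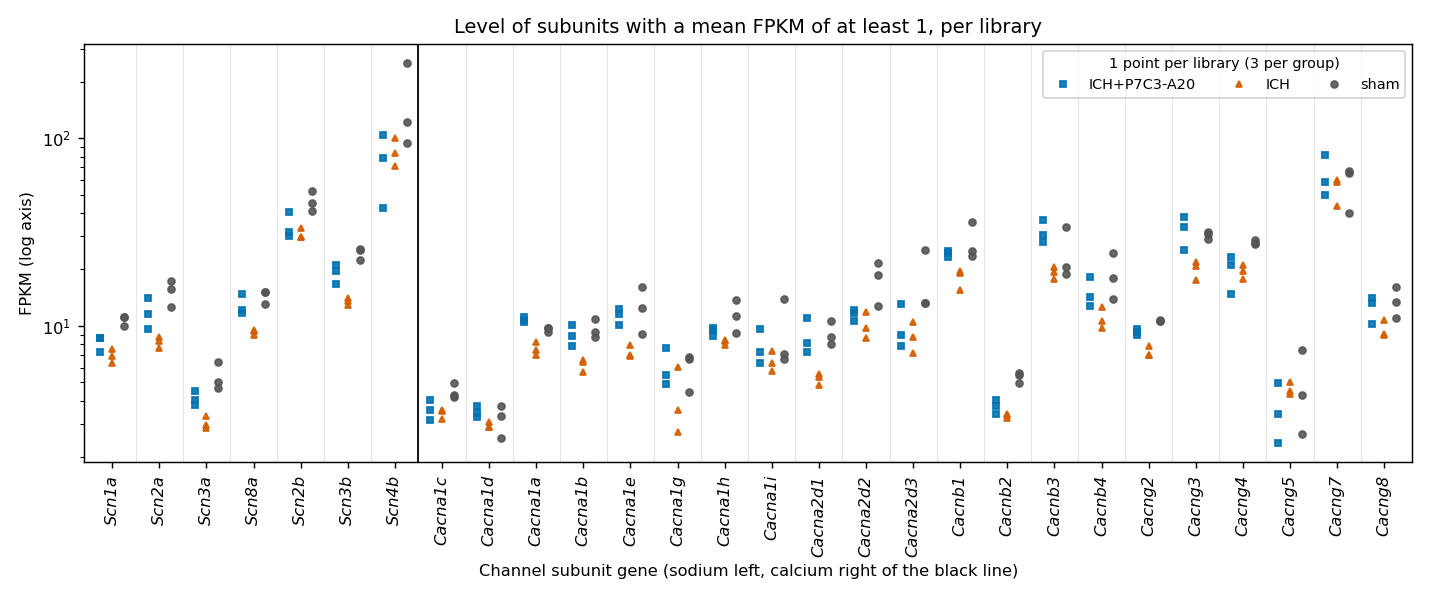
FPKM of 28 subunits with a mean of at least 1, on a log axis, with 1 point per library and 3 libraries per group (squares ICH+P7C3-A20, triangles ICH, circles sham; sodium channel genes left of the black line). For most genes the triangles of ICH lie at or below the other points, while Scn4b, Cacng5 and Cacng7 spread widely within groups.

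Comparing ICH with sham asks how the haemorrhage altered these transcripts. Many subunits fell: 22 of the 39 tested members were lower in ICH than in sham and 0 were higher (edgeR quasi-likelihood test, Benjamini-Hochberg adjusted p under 0.05 over 21900 genes). Over all tested genes 10.4% were called lower and 15.6% higher. Cacna2d3, Scn9a, Scn2a and Scn3b had large falls, Scn3b to 53.3% of the sham level and Cacna2d3 2.01-fold below it. At an unadjusted p under 0.05, 26 members were lower and 0 higher, and DESeq2 called 25 lower and 0 higher. The fitted log2 change was negative in 38 of the 39, with a median of -0.65 for the members and 0.00 for all tested genes. FPKM of ICH and sham did not overlap, with ICH lower, in 23 members, 21 of them called, where 14.3% of all tested genes showed this. Of the 29 members averaging 1 FPKM or more, 20 were lower. Together the members took 0.311%, 0.317% and 0.330% of counts in ICH libraries, against 0.477%, 0.424% and 0.575% in sham libraries. In bulk tissue, fewer cells of a type and less RNA per cell cannot be told apart.

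Of the 22 calls, 14 held without each of the 6 libraries in turn. The other 8 included Scn9a, Cacna1c, Cacna1h, Cacna2d2, Cacng3, Cacng4 and Cacng8, and each of the 8 was lost without 2 or more libraries. The count of members called lower was 14 without sham 1 and 15 to 22 without any other library. With limma on log2(FPKM + 1) it was 11. Markers of several cell types moved with the fall. Of 14 pan-neuronal markers 11 were lower in ICH and 0 higher (edgeR; at an unadjusted p under 0.05, 13 lower and 0 higher), with a median log2 change of -0.64 and sums of 624 to 652 FPKM in ICH libraries, against 910 to 992 FPKM in sham libraries. Of 12 striatal projection neuron markers 11 were lower, with sums of 733 to 930 FPKM in ICH libraries, against 1088 to 1925 FPKM in sham libraries. Neuron lists moved unequally: 1 of 11 cortical excitatory neuron markers was lower, with a median log2 change of -0.09 and 4 positive. Of 12 thalamic and hypothalamic neuron markers 1 was lower (edgeR; 5 lower and 0 higher at an unadjusted p under 0.05), with a median of -0.80 and 3 positive. Of 9 markers listed for GABAergic interneurons 3 were lower, with a median of -0.36 and 3 positive. That list includes Gad1, Gad2 and Slc32a1, which other GABAergic neurons, striatal projection neurons among them, also express. Among all tested genes 10.4% were called lower. All 10 microglia and macrophage markers were higher, with sums of 502 to 549 FPKM in ICH libraries, against 58.3 to 71.4 FPKM in sham libraries. The part of these shifts in the fall of channel transcripts was not tested.

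Comparing ICH+P7C3-A20 with ICH asks how the compound altered the transcripts after a haemorrhage. Here 11 of 39 members were higher in ICH+P7C3-A20 than in ICH and 0 were lower, while over all tested genes 2.69% were called higher and 6.05% lower. The 11 included Scn2a, Scn3a, Scn3b, Cacna1a, Cacna1b, Cacna1e, Cacna2d1, Cacnb1, Cacnb3 and Cacng2, with all 3 pores of presynaptic channels, and their levels were between 1.33- and 1.75-fold those of ICH. At an unadjusted p under 0.05, 16 members were higher and 0 lower, and DESeq2 called 16 higher and 0 lower. The log2 change was positive in 35 of 39, with a median of 0.49 for the members and -0.01 for all tested genes. FPKM did not overlap, with ICH+P7C3-A20 higher, in 18 members, against 10.7% of all tested genes. Member transcripts took 0.405%, 0.411% and 0.368% of counts in ICH+P7C3-A20 libraries, against 0.311%, 0.317% and 0.330% in ICH libraries. The ICH libraries served in both comparisons, so their changes are not independent of each other.

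These calls depended on which libraries entered. Without ICH 1 and without ICH 3 edgeR called 0 members (16 and 15 members at an unadjusted p under 0.05), without ICH 2 it called Scn3a and Cacna1a, and without ICH+P7C3-A20 1 it called Scn3b and Cacna2d1. Without ICH+P7C3-A20 2 it called 12 members and without ICH+P7C3-A20 3 it called 8. Over all tested genes the number called higher was 86, 106 and 79 without ICH 1, 2 and 3 and 130 without ICH+P7C3-A20 1, against 590 with all libraries. The median log2 change of the members ranged from 0.37 to 0.51 over these 6 fits, and each of the 11 kept its sign, while each call ended without at least 3 of the 6 libraries (highest adjusted p per gene 0.0758 to 0.182). With library totals in place of TMM scaling 7 members were higher, and over all tested genes 302 were higher and 1248 lower, against 590 and 1324 with TMM. With limma on log2(FPKM + 1) 1 member was higher, and 13 at an unadjusted p under 0.05. Cortical excitatory neuron markers summed to 326 to 546 FPKM in ICH+P7C3-A20 libraries, against 179 to 240 FPKM in ICH libraries, with a median log2 change of 1.19 and 1 of 11 called (6 at an unadjusted p under 0.05). Pan-neuronal markers had 2 of 14 called higher (10 at an unadjusted p under 0.05) and a median of 0.50. Striatal projection neuron markers had 0 of 12 called in either direction (edgeR; 1 higher and 0 lower at an unadjusted p under 0.05) and a median of 0.07, with 3 negative, and microglia and macrophage markers had 8 of 10 called lower. The part of these shifts in the higher channel levels was not tested.

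**Figure D2:**
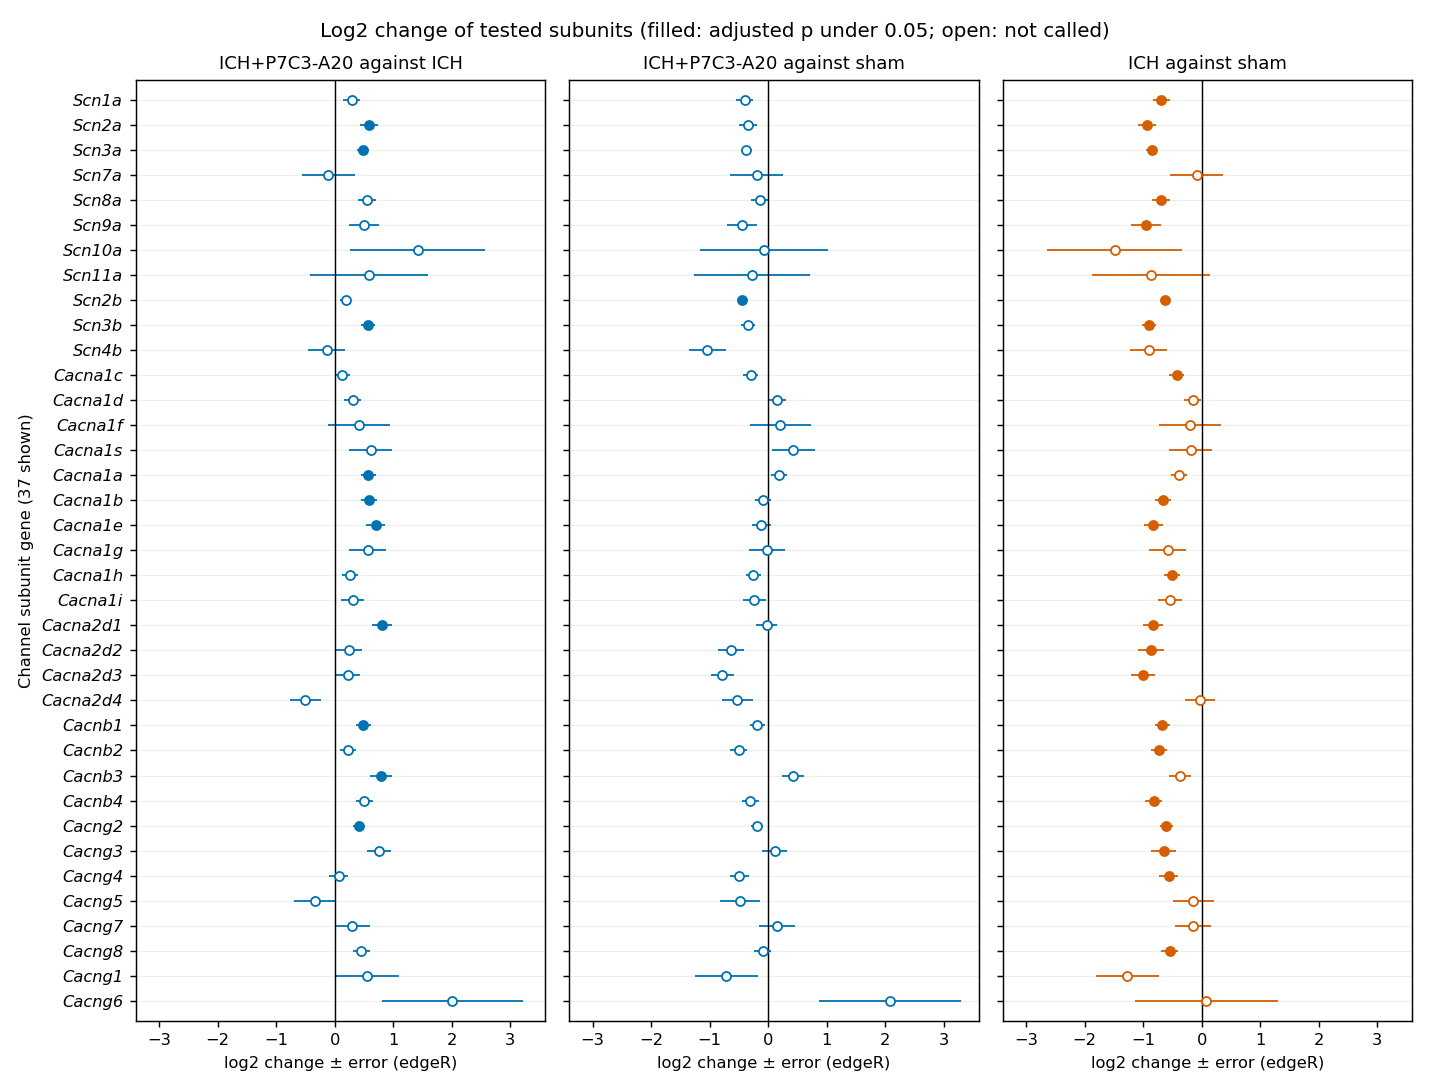
Log2 change with its error (the change divided by the square root of edgeR's F) for 37 tested subunits in each comparison, fitted over all 9 libraries. Filled points passed an adjusted p of 0.05: 10 lie right of 0 in ICH+P7C3-A20 against ICH, 1 left of 0 in ICH+P7C3-A20 against sham and 21 left of 0 in ICH against sham.

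Sodium channel pores were lower in ICH for 6 of 9 tested members. Their summed level was 38.98 ± 4.46 FPKM in ICH+P7C3-A20, 28.8 ± 0.687 FPKM in ICH and 48.6 ± 3.6 FPKM in sham (SD, n = 3 each), and these ranges did not overlap. Scn3a, a pore most used in the developing brain, had 4.03, 4.48 and 3.801 FPKM in ICH+P7C3-A20, 2.84, 2.98 and 3.32 FPKM in ICH and 5.01, 4.68 and 6.41 FPKM in sham. The 3 groups were fully separated, with ICH lowest and sham highest. Scn3a fell in ICH relative to sham (log2 change -0.86 ± 0.10, edgeR adjusted p = 0.000126) and was higher in ICH+P7C3-A20 than in ICH (log2 change 0.49 ± 0.10, edgeR adjusted p = 0.0152). Scn2a, a main pore of excitatory neurons and their initial segment, had 14.1, 11.6 and 9.655 FPKM in ICH+P7C3-A20, 8.30, 7.63 and 8.78 FPKM in ICH and 15.7, 12.7 and 17.3 FPKM in sham. Every ICH library lay below every library of the other groups, while ICH+P7C3-A20 and sham overlapped. Scn2a was 1.91-fold lower in ICH than in sham (log2 change -0.93 ± 0.16, edgeR adjusted p = 0.00169), and ICH+P7C3-A20 stood above ICH (log2 change 0.59 ± 0.16, edgeR adjusted p = 0.0454).

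Scn1a, the pore on which fast-spiking inhibitory neurons depend, had 8.65, 8.59 and 7.24 FPKM in ICH+P7C3-A20, 7.50, 6.92 and 6.33 FPKM in ICH and 11.1, 11.2 and 10.02 FPKM in sham. ICH libraries were below all sham libraries and overlapped ICH+P7C3-A20. Scn1a fell in ICH (log2 change -0.69 ± 0.14, edgeR adjusted p = 0.00487), while the difference of ICH+P7C3-A20 from ICH did not pass (log2 change 0.29 ± 0.14, edgeR adjusted p = 0.240). Scn8a, the pore of mature nodes of Ranvier, had 14.8, 11.7 and 12.2 FPKM in ICH+P7C3-A20, 9.46, 9.38 and 8.998 FPKM in ICH and 15.1, 13.2 and 15.3 FPKM in sham. All ICH libraries were lowest, and ICH+P7C3-A20 reached into the sham range. Scn8a fell in ICH (log2 change -0.69 ± 0.16, edgeR adjusted p = 0.00807), and the difference of ICH+P7C3-A20 from ICH narrowly missed the threshold (log2 change 0.55 ± 0.16, edgeR adjusted p = 0.0552).

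Scn9a, a pore of sensory neurons, had 0.513, 0.7625 and 0.7685 FPKM in ICH+P7C3-A20, 0.556, 0.546 and 0.376 FPKM in ICH and 1.12, 0.903 and 0.745 FPKM in sham. Scn9a was lower in ICH (log2 change -0.95 ± 0.26, edgeR adjusted p = 0.0196), and the call ended without sham 1 or ICH 3 (adjusted p up to 0.0841). Scn7a, a sodium-sensing relative of the pores, ranged from 0.152 to 0.499 FPKM over all libraries without a call. Scn10a and Scn11a, pores of pain-sensing neurons, stayed at or under 0.0826 FPKM, and Scn4a was listed at 0 in 6 of 9 libraries.

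Sodium channel beta subunits included Scn2b, which forms a disulphide bond with the pore, and its levels were 31.7, 40.7 and 30.05 FPKM in ICH+P7C3-A20, 30.0, 29.7 and 33.2 FPKM in ICH and 41.1, 45.4 and 52.7 FPKM in sham. Sham libraries were highest, and ICH+P7C3-A20 overlapped ICH. Scn2b fell in ICH (log2 change -0.63 ± 0.09, edgeR adjusted p = 0.000680), showed no call between ICH+P7C3-A20 and ICH (log2 change 0.19 ± 0.09, edgeR adjusted p = 0.246), and was the member called in ICH+P7C3-A20 against sham (log2 change -0.44 ± 0.09, edgeR adjusted p = 0.0202). Scn3b, a beta subunit bound to the pore without a covalent bond, had 21.2, 19.5 and 16.8 FPKM in ICH+P7C3-A20, 13.6, 12.9 and 14.1 FPKM in ICH and 25.5, 22.4 and 25.6 FPKM in sham. The groups were fully separated, in the order ICH, ICH+P7C3-A20 and sham from low to high. Scn3b fell in ICH (log2 change -0.91 ± 0.12, edgeR adjusted p = 0.000379) and was higher in ICH+P7C3-A20 than in ICH (log2 change 0.56 ± 0.12, edgeR adjusted p = 0.0201).

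Scn4b, the beta subunit tied to resurgent current and abundant in striatal neurons, had the highest mean over all libraries and was uneven within groups. Its levels were 42.7, 105 and 78.65 FPKM in ICH+P7C3-A20, 83.5, 71.0 and 100.2 FPKM in ICH and 122, 94.0 and 252.5 FPKM in sham. Sham 3 was far above sham 1 and sham 2, and ICH+P7C3-A20 1 was lowest of all. No comparison passed for Scn4b (log2 change -0.90 ± 0.32, edgeR adjusted p = 0.0599 in ICH against sham). Striatal projection neuron markers stood at 639, 1004 and 970 FPKM in ICH+P7C3-A20 1, 2 and 3, at 930, 733 and 881 FPKM in ICH 1, 2 and 3, and at 1276, 1088 and 1925 FPKM in sham 1, 2 and 3, with the same library highest and the same library lowest as for Scn4b. Their part in the values of Scn4b was not tested.

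Presynaptic calcium pores were higher in ICH+P7C3-A20 than in ICH in 3 of 3 members, with a summed level of 31.1 ± 2.64 FPKM in ICH+P7C3-A20, 21.1 ± 0.868 FPKM in ICH and 31.8 ± 4.80 FPKM in sham (SD, n = 3 each). The P/Q-type pore Cacna1a had 11.2, 10.8 and 10.49 FPKM in ICH+P7C3-A20, 7.43, 8.22 and 7.005 FPKM in ICH and 9.73, 9.335 and 9.79 FPKM in sham. The 3 groups were fully separated, with ICH+P7C3-A20 above sham and ICH lowest. Cacna1a was higher in ICH+P7C3-A20 than in ICH (log2 change 0.57 ± 0.13, edgeR adjusted p = 0.0261), and ICH against sham narrowly missed the threshold (log2 change -0.39 ± 0.13, edgeR adjusted p = 0.05175). The N-type pore Cacna1b had 10.2, 8.85 and 7.835 FPKM in ICH+P7C3-A20, 5.685, 6.61 and 6.45 FPKM in ICH and 9.27, 8.755 and 10.9 FPKM in sham. ICH was lowest without overlap, and the other groups overlapped each other. Cacna1b fell in ICH (log2 change -0.67 ± 0.14, edgeR adjusted p = 0.00503) and was higher in ICH+P7C3-A20 (log2 change 0.58 ± 0.14, edgeR adjusted p = 0.0287). The R-type pore Cacna1e had 12.3, 11.6 and 10.1 FPKM in ICH+P7C3-A20, 6.97, 6.92 and 7.90 FPKM in ICH and 12.5, 9.085 and 16.1 FPKM in sham. Sham 2 was the lowest sham library and still above every ICH library. Cacna1e fell in ICH (log2 change -0.82 ± 0.16, edgeR adjusted p = 0.00398), to 56.5% of sham, and was 1.63-fold higher in ICH+P7C3-A20 than in ICH (log2 change 0.70 ± 0.16, edgeR adjusted p = 0.0260).

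L-type and T-type pores had 1 member each called lower in ICH, of 4 and 3 tested. Cacna1c, the main L-type pore of brain and heart, had 4.035, 3.57 and 3.15 FPKM in ICH+P7C3-A20, 3.18, 3.57 and 3.53 FPKM in ICH and 4.28, 4.19 and 4.96 FPKM in sham. Sham was highest without overlap, and ICH+P7C3-A20 spread across the ICH range. Cacna1c fell in ICH (log2 change -0.43 ± 0.13, edgeR adjusted p = 0.0329), with an adjusted p of up to 0.121 and no call without sham 1, sham 2, sham 3, ICH 1 or ICH 3. Cacna1d, the L-type pore that opens at less depolarised voltages, showed no call, with 3.29 to 3.73 FPKM in ICH+P7C3-A20, 2.89 to 3.06 FPKM in ICH and 2.53 to 3.73 FPKM in sham. The retinal pore Cacna1f and the muscle pore Cacna1s stayed at or under 0.249 FPKM in every library. Cacna1h, a T-type pore, had 9.545, 8.835 and 9.76 FPKM in ICH+P7C3-A20, 8.29, 7.93 and 8.39 FPKM in ICH and 11.3, 9.22 and 13.7 FPKM in sham. Every ICH library lay below the other groups. Cacna1h fell in ICH (log2 change -0.51 ± 0.14, edgeR adjusted p = 0.0180), and the call ended without sham 1, ICH 1, ICH 2 or ICH 3 (adjusted p up to 0.0713). Cacna1g and Cacna1i, T-type pores of thalamic relay and reticular neurons, were not called (log2 change -0.58 ± 0.31, edgeR adjusted p = 0.212 and log2 change -0.54 ± 0.20, edgeR adjusted p = 0.0701 in ICH against sham).

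Alpha2delta subunits fell in ICH in 3 of 4 members, with a summed level of 30.7 ± 2.83 FPKM in ICH+P7C3-A20, 24.7 ± 1.70 FPKM in ICH and 44.7 ± 4.43 FPKM in sham (SD, n = 3 each). Cacna2d3 had 7.855, 13.15 and 8.99 FPKM in ICH+P7C3-A20, 8.68, 7.18 and 10.6 FPKM in ICH and 13.3, 13.2 and 25.5 FPKM in sham. Sham 3 was the highest of all libraries by far, and ICH libraries were below every sham library. Cacna2d3 was 2.01-fold lower in ICH than in sham (log2 change -1.01 ± 0.20, edgeR adjusted p = 0.00455), with no call for ICH+P7C3-A20 against ICH (log2 change 0.23 ± 0.20, edgeR adjusted p = 0.559). Cacna2d2, with Cacna2d1 a binding site of gabapentin, had 10.6, 12.2 and 11.7 FPKM in ICH+P7C3-A20, 11.8, 9.69 and 8.63 FPKM in ICH and 21.6, 18.6 and 12.7 FPKM in sham. Its sham libraries were highest, with sham 3 nearest to ICH. Cacna2d2 fell in ICH (log2 change -0.87 ± 0.22, edgeR adjusted p = 0.0148), and the call ended without sham 1 or ICH 3 (adjusted p up to 0.0637). Cacna2d1 had 11.02, 8.07 and 7.24 FPKM in ICH+P7C3-A20, 4.87, 5.35 and 5.56 FPKM in ICH and 8.74, 7.97 and 10.7 FPKM in sham. ICH libraries were lowest without overlap, and ICH+P7C3-A20 1 was above every sham library. Cacna2d1 fell in ICH (log2 change -0.84 ± 0.18, edgeR adjusted p = 0.00582) and was 1.75-fold higher in ICH+P7C3-A20 than in ICH (log2 change 0.81 ± 0.18, edgeR adjusted p = 0.0211), the largest log2 change among the 11 called there. Cacna2d4, best known from retina, was at 0.364 to 0.816 FPKM over all libraries and was the member whose FPKM in ICH+P7C3-A20 lay below every ICH library (log2 change -0.50 ± 0.27, edgeR adjusted p = 0.288).

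Cytoplasmic calcium channel beta subunits fell in ICH in 3 of 4 members, with a summed level of 74.8 ± 6.21 FPKM in ICH+P7C3-A20, 51.6 ± 4.09 FPKM in ICH and 76.65 ± 20 FPKM in sham (SD, n = 3 each). Cacnb4, the gene mutated in the lethargic mouse, had 14.3, 18.1 and 12.75 FPKM in ICH+P7C3-A20, 10.6, 9.74 and 12.55 FPKM in ICH and 18.0, 13.9 and 24.5 FPKM in sham. ICH libraries were lowest, and ICH+P7C3-A20 overlapped sham. Cacnb4 fell in ICH (log2 change -0.82 ± 0.15, edgeR adjusted p = 0.00235), and its difference between ICH+P7C3-A20 and ICH narrowly missed the threshold (log2 change 0.51 ± 0.15, edgeR adjusted p = 0.0570). Cacnb1, shared by muscle and brain channels, had 24.6, 24.99 and 23.2 FPKM in ICH+P7C3-A20, 19.1, 15.5 and 19.7 FPKM in ICH and 25.15, 23.5 and 35.7 FPKM in sham. ICH libraries lay below both other groups. Cacnb1 fell in ICH (log2 change -0.68 ± 0.13, edgeR adjusted p = 0.00286) and was higher in ICH+P7C3-A20 than in ICH (log2 change 0.49 ± 0.13, edgeR adjusted p = 0.0383). Cacnb2, the main beta subunit of cardiac channels, had 4.03, 3.395 and 3.74 FPKM in ICH+P7C3-A20, 3.37, 3.39 and 3.23 FPKM in ICH and 5.60, 4.985 and 5.46 FPKM in sham. All sham libraries were highest, with ICH+P7C3-A20 just above ICH. Cacnb2 fell in ICH (log2 change -0.73 ± 0.14, edgeR adjusted p = 0.00376), and the difference of ICH+P7C3-A20 from ICH did not pass (log2 change 0.23 ± 0.14, edgeR adjusted p = 0.377). Cacnb3, the beta subunit with the highest mean over all libraries though below Cacnb1 in sham, had 36.7, 30.5 and 28.1 FPKM in ICH+P7C3-A20, 17.7, 19.35 and 20.6 FPKM in ICH and 20.6, 18.85 and 33.6 FPKM in sham. ICH and sham overlapped, and every ICH+P7C3-A20 library was above ICH. Cacnb3 was not called in ICH (log2 change -0.37 ± 0.18, edgeR adjusted p = 0.175) and was higher in ICH+P7C3-A20 than in ICH (log2 change 0.79 ± 0.18, edgeR adjusted p = 0.0268).

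TARP-type gamma subunits fell in ICH in 4 of 6 members, with a summed level of 141 ± 18.6 FPKM in ICH+P7C3-A20, 115 ± 11.4 FPKM in ICH and 145 ± 16.4 FPKM in sham (SD, n = 3 each). Cacng2 (stargazin), the gene mutated in the stargazer mouse, had narrow groups, with 9, 9.63 and 9.32 FPKM in ICH+P7C3-A20, 7.83, 6.97 and 7.03 FPKM in ICH and 10.6, 10.8 and 10.65 FPKM in sham. The 3 groups were fully separated. Cacng2 fell in ICH (log2 change -0.60 ± 0.11, edgeR adjusted p = 0.00247) and was higher in ICH+P7C3-A20 than in ICH (log2 change 0.41 ± 0.11, edgeR adjusted p = 0.0423). Cacng8, a TARP of hippocampus and cortex, had 14.0, 13.3 and 10.3 FPKM in ICH+P7C3-A20, 8.91, 9.02 and 10.7 FPKM in ICH and 13.4, 10.96 and 16.2 FPKM in sham. ICH+P7C3-A20 3 lay within the ICH range. Cacng8 fell in ICH (log2 change -0.55 ± 0.14, edgeR adjusted p = 0.0180), and the call ended without sham 1, ICH 1 or ICH 2 (adjusted p up to 0.0710). Cacng7, the most abundant TARP, had 81.7, 49.85 and 58.3 FPKM in ICH+P7C3-A20, 58.4, 60.1 and 43.7 FPKM in ICH and 65.4, 67.2 and 40.0 FPKM in sham, and its groups overlapped throughout (log2 change -0.15 ± 0.30, edgeR adjusted p = 0.781 in ICH against sham).

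Cacng3 and Cacng4 were also lower in ICH (log2 change -0.65 ± 0.21, edgeR adjusted p = 0.0431 and log2 change -0.56 ± 0.16, edgeR adjusted p = 0.0266), and each call ended without sham 1, sham 2, ICH 1, ICH 2 or ICH 3 (adjusted p up to 0.155 and 0.107). Cacng3 had 25.4 to 38.0 FPKM in ICH+P7C3-A20, 17.6 to 21.85 FPKM in ICH and 29.1 to 31.6 FPKM in sham, so that ICH+P7C3-A20 stood above ICH without overlap and without a call (log2 change 0.76 ± 0.21, edgeR adjusted p = 0.0506). Cacng4 had 14.9 to 23.45 FPKM in ICH+P7C3-A20, 17.85 to 21.05 FPKM in ICH and 27.5 to 28.65 FPKM in sham, so that ICH+P7C3-A20 overlapped ICH. Cacng5 was not called in any comparison. Of the muscle-type gamma subunits, Cacng1 had 0.257, 0.4925 and 0.2545 FPKM in ICH+P7C3-A20, 0.369, 0.0819 and 0.267 FPKM in ICH and 0.495, 0.478 and 0.697 FPKM in sham, below sham in every ICH library and not called (log2 change -1.27 ± 0.55, edgeR adjusted p = 0.118). Cacng6 had 72 estimated counts in ICH+P7C3-A20 1 and at most 18 in any other library, with no call. Skeletal muscle markers summed to 3.92 to 6.32 FPKM in ICH+P7C3-A20 libraries, 3.01 to 4.90 FPKM in ICH libraries and 4.48 to 9.09 FPKM in sham libraries, with Ckm, Myh1, Myh2, Myh4, Tnnt3, Myod1 or Myog at 0 in some libraries.

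**Figure D3:**
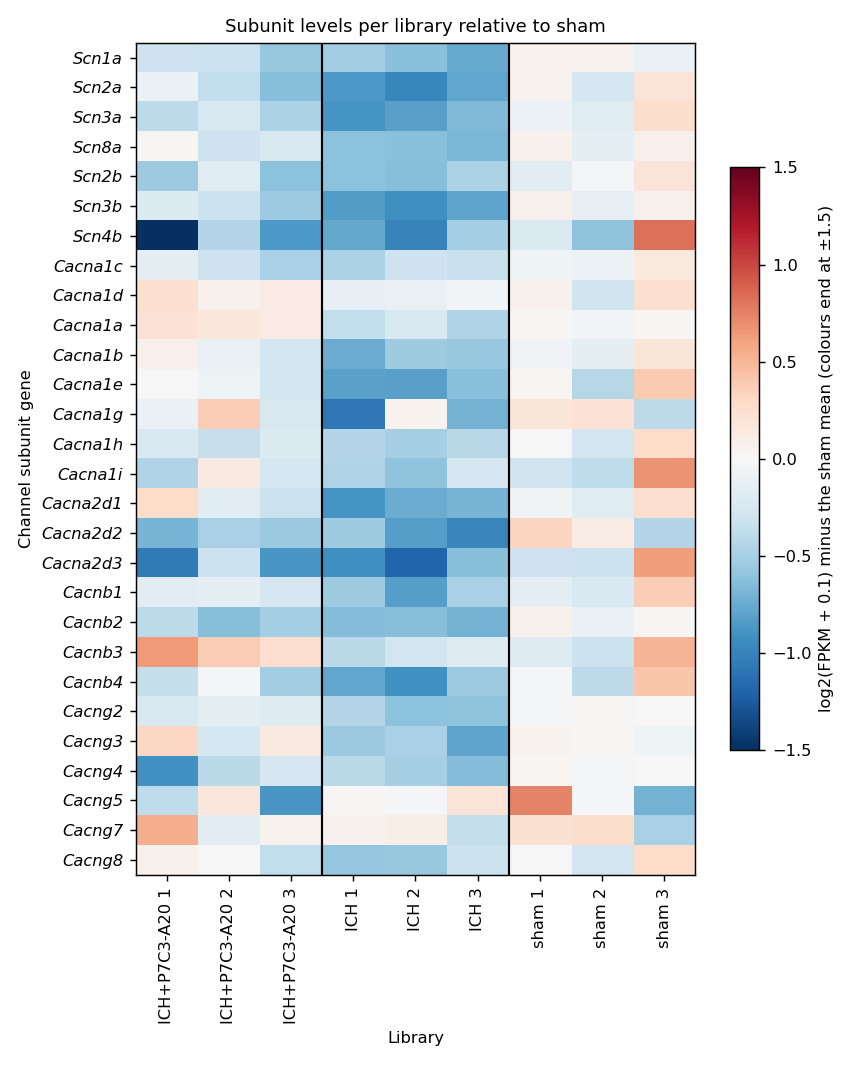
Level of 28 subunits that average 1 FPKM or more in each of the 9 libraries, as log2(FPKM + 0.1) minus the mean of the 3 sham libraries (blue lower, red higher; black lines separate ICH+P7C3-A20, ICH and sham). The 3 ICH columns are blue in most rows, the ICH+P7C3-A20 columns are paler, and Scn4b, Cacna2d3, Cacng5 and Cacna1i vary from library to library within sham.

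Comparing ICH+P7C3-A20 with sham gives the distance of treated animals from animals without a haemorrhage, and it shares its libraries with both other comparisons. It called 1 of 39 members, Scn2b, lower, and 0 higher (edgeR; at an unadjusted p under 0.05, 10 lower and 1 higher; DESeq2 6 lower and 0 higher), where 0.744% of all tested genes were called lower and 4.58% higher, 5.32% in either direction. Scn2b stood at 73.6% of sham (log2 change -0.44 ± 0.09, edgeR adjusted p = 0.0202), and its call ended without sham 2 or ICH+P7C3-A20 3 (adjusted p up to 0.101). Leaving out ICH+P7C3-A20 1 gave 5 members lower, leaving out sham 3 gave 2 lower and 1 higher, and leaving out sham 2 gave 2 lower. The median log2 change was -0.24 for the members and 0.03 for all tested genes. In the same comparison 3 of 12 striatal projection neuron markers were lower (12 at an unadjusted p under 0.05), with a median of -0.70, and all 10 microglia and macrophage markers were higher, with a median of 1.57. Of 11 cortical excitatory neuron markers 0 were called higher and 1 lower (edgeR; 5 higher and 1 lower at an unadjusted p under 0.05), with a median of 1.11 and 10 positive. Their sums were 326 to 546 FPKM in ICH+P7C3-A20 libraries, against 163 to 280 FPKM in sham libraries. Thalamic and hypothalamic neuron markers had 0 of 12 called, with a median of -1.09 and 12 negative. Pan-neuronal markers had 0 of 14 called and a median of -0.12. The part of these shifts in the members' values was not tested. Members nearest to the threshold without passing were Cacna2d3 (log2 change -0.78 ± 0.20, edgeR adjusted p = 0.0529) and Scn3a (log2 change -0.37 ± 0.10, edgeR adjusted p = 0.0538). FPKM lay below every sham library in 10 members, against 5.39% of all tested genes, and above every sham library in Cacna1a, with 10.7% of all tested genes in that position. A missed threshold does not show equal levels: for Cacna2d1 the change was -0.03 ± 0.18 on the log2 scale and for Cacna1b -0.09 ± 0.14 on the log2 scale.

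**Figure D4:**
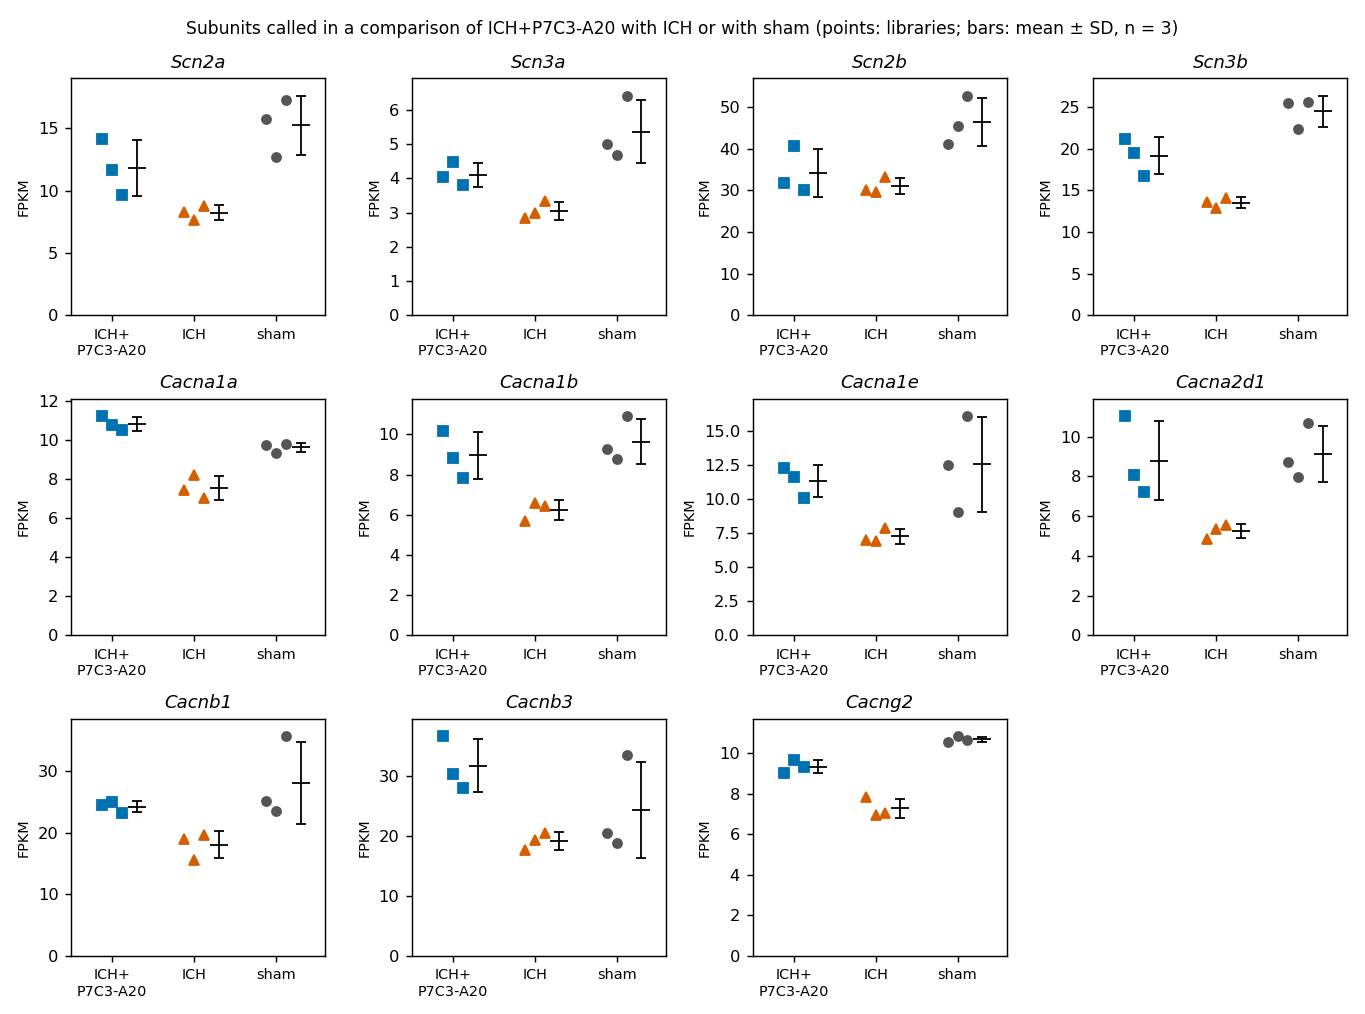
FPKM per library (points) with mean ± SD (bars, n = 3 per group) for 11 subunits called in a comparison that includes ICH+P7C3-A20, on axes that start at 0. Each panel shows ICH+P7C3-A20, ICH and sham from left to right, and in 10 panels every ICH+P7C3-A20 point is above every ICH point, the exception being Scn2b.

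The make-up of each channel class was also compared, as the share of a member in the summed FPKM of its class (mean ± SD, n = 3 per group). Among sodium pores Scn8a held 33.2% ± 2.67 in ICH+P7C3-A20, 32.3% ± 1.02 in ICH and 29.9% ± 0.248 in sham, Scn2a held 30.1% ± 2.27 in ICH+P7C3-A20, 28.6% ± 1.77 in ICH and 31.2% ± 2.82 in sham and Scn1a held 20.98% ± 1.15 in ICH+P7C3-A20, 24.0% ± 1.76 in ICH and 22.3% ± 2.74 in sham. Among beta subunits of calcium channels Cacnb3 held 42.4% ± 3.35 in ICH+P7C3-A20, 37.3% ± 2.75 in ICH and 31.4% ± 2.18 in sham, and its ICH+P7C3-A20 and ICH ranges overlapped while both lay above sham. Cacnb1 held 32.5% ± 1.68 in ICH+P7C3-A20, 35.0% ± 2.6 in ICH and 36.9% ± 1.32 in sham. In the L-type class Cacna1c held 48.8% ± 2.22 in ICH+P7C3-A20, 52.2% ± 1.13 in ICH and 57.05% ± 2.53 in sham, with ICH+P7C3-A20 and ICH below sham. Among TARPs Cacng3 held 22.8% ± 2.12 in ICH+P7C3-A20, 17.4% ± 0.422 in ICH and 21.2% ± 1.61 in sham, with ICH below both other groups. With 3 libraries a group the smallest p of a two-sided exact permutation test is 0.1, so no test of a share was made. Full separation of ranges has that same probability for a share that does not differ between groups. Shares were computed for all 40 members and only some are named, so separations like these can arise without a difference.

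Channel genes of these families lie close together in places. Positions are those of the deposited table, whose build is not named in it, and 34 of the 40 members have the identical position in GENCODE M21 (GRCm38). On chromosome 2 the pores Scn3a (ENSMUSG00000057182, 65457118 to 65567627, minus strand), Scn2a (ENSMUSG00000075318, 65620771 to 65767447, plus strand), Scn1a (ENSMUSG00000064329), Scn9a and Scn7a lie within 1328 kb, and the first 4 were lower in ICH while Scn7a was not called (log2 change -0.09 ± 0.46, edgeR adjusted p = 0.922). On chromosome 9 Scn2b (ENSMUSG00000070304, 45117782 to 45130070) and Scn4b (ENSMUSG00000046480, 45138395 to 45154152) lie within 36 kb on the plus strand. On chromosome 7 Cacng7, Cacng8 and Cacng6 lie within 103 kb, of which Cacng8 was lower in ICH. Scn1a, Scn2a, Scn3a and Scn9a share 4.03%, 5.76%, 6.49% and 4.16% of their 50-base exon stretches with other genes, each other included, so a small part of their reads could be assigned to another gene. Among all members Cacna1s and Cacnb4 share the most, 16.3% and 15.0%, counting matches on either strand. Exons of 10 members (Scn9a, Cacna1a, Cacna1d, Cacna1h, Cacna1s, Cacna2d2, Cacnb1, Cacnb2, Cacnb4 and Cacng2) overlap a gene on the opposite strand, over 1.03% to 19.98% of their bases, the most in Cacna1s with Gm37759 and Cacnb4 with A430018G15Rik. The libraries were made with a strand-marking (dUTP) protocol, and the strand setting of the counting is not given in the sources used here, so part of the values of these members may come from the opposite strand.

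Promoters of the members, called or not, were also read for common sequence. RefSeq windows (GRCm38.p6, 250 bases before to 50 after a start) were found for 30 of the 40 members, 41 windows in all. The GC box GGGCGG, searched on both strands, occurred in 39.02% of member windows and in 35.7% of all 32851 windows, the E-box CAGCTG in 31.7% of member windows and 16.3% of all, the TATA box TATAAA in 4.88% of member windows and 13.6% of all, and the element TGACGTCA in 0 of 41 member windows and 1.79% of all. Median G+C content was 59.3% in member windows and 52.7% in all windows. Shown are windows of 4 subunits of different classes that were called in ICH+P7C3-A20 against ICH, chosen because they differ in these motifs. Capitals mark the GC box, on either strand, the E-box and the TATA box.
Cacna1b (chr2:24763103-24763402, minus strand): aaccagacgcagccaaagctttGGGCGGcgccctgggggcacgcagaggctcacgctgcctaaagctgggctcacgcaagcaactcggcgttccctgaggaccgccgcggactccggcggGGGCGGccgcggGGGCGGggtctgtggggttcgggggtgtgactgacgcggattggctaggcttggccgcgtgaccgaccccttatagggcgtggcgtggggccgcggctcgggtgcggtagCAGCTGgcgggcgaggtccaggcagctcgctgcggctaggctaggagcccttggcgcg
Cacna2d1 (chr5:15934441-15934740, plus strand): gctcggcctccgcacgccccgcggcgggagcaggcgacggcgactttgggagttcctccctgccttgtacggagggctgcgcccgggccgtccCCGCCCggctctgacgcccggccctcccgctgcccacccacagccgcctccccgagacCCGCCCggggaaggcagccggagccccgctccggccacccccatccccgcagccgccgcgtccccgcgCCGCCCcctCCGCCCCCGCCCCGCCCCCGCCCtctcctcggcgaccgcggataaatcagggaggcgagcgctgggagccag
Cacng2 (chr15:78119231-78119530, minus strand): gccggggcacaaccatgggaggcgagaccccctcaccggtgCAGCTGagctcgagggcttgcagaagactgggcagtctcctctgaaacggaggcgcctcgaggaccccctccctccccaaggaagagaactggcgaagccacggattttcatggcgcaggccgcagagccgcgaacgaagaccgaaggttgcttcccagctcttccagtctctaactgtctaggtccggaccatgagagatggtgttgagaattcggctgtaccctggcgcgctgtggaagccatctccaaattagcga
Scn2a (chr2:65668436-65668735, plus strand): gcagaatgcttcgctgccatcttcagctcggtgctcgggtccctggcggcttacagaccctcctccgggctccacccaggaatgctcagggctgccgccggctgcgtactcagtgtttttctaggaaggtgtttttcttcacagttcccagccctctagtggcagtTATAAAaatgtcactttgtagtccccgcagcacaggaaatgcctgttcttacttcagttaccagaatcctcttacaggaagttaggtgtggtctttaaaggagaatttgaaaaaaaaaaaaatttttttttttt
The Cacna2d1 and Cacna1b windows hold runs of GC boxes and 80.0% and 72.3% G+C, the Cacng2 window holds an E-box without a GC box, and the Scn2a window shown, at a start inside the gene, holds a TATA box at 47.7% G+C. Another Scn2a window (chr2:65620519-65620818), at the deposited start of the gene, holds no GC box, E-box or TATA box and has 33.0% G+C. A match is a run of letters and not a shown binding site.

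Many partners of sodium channels were also lower in ICH. Of 20 genes of sodium channel partners and the axon initial segment, 11 were lower in ICH than in sham and 0 higher (edgeR; at an unadjusted p under 0.05, 13 lower and 0 higher). Their median log2 change was -0.48, with 4 positive. Over all tested genes 10.4% were called lower and 15.6% higher. The smallest p-values belonged to Nalcn, the sodium leak channel (log2 change -0.98 ± 0.11, edgeR adjusted p = 0.000117), Fgf14, which binds the tail of sodium pores (log2 change -1.02 ± 0.13, edgeR adjusted p = 0.000324), Cntnap1, an axonal protein beside the nodes of Ranvier (log2 change -0.77 ± 0.13, edgeR adjusted p = 0.00189), and Ank3, the ankyrin that holds sodium channels at the initial segment (log2 change -0.61 ± 0.12, edgeR adjusted p = 0.00313). In ICH+P7C3-A20 against ICH 4 of the 20 were higher and 0 lower (edgeR; at an unadjusted p under 0.05, 10 higher and 1 lower). The median was 0.32, with 6 negative, and over all tested genes 2.69% were called higher and 6.05% lower. Nalcn was among the 4 (log2 change 0.42 ± 0.11, edgeR adjusted p = 0.0419). Fgf14 (log2 change 0.37 ± 0.13, edgeR adjusted p = 0.116), Cntnap1 (log2 change 0.26 ± 0.13, edgeR adjusted p = 0.261) and Ank3 (log2 change 0.20 ± 0.12, edgeR adjusted p = 0.3375) did not pass.

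Of 22 partners and inhibitors of calcium channels 9 were lower and 2 higher in ICH than in sham, with a median of -0.43 and 5 positive. Over all tested genes 10.4% were called lower and 15.6% higher. The smallest p-values belonged to Akap5, a scaffold of L-type channels (log2 change -1.06 ± 0.14, edgeR adjusted p = 0.000390), Rims2, an active zone protein that binds presynaptic channels (log2 change -0.70 ± 0.11, edgeR adjusted p = 0.00117), Orai1, the pore of store-operated calcium entry (log2 change 1.44 ± 0.26, edgeR adjusted p = 0.00243), and Stim1, its sensor, which also binds L-type pores (log2 change -0.41 ± 0.08, edgeR adjusted p = 0.00470). Orai1 was higher in ICH, as was Gem, a small GTPase that inhibits calcium channels (log2 change 1.24 ± 0.35, edgeR adjusted p = 0.0238), which was named after its values were seen. In ICH+P7C3-A20 against ICH 8 of the 22 were higher and 0 lower (edgeR; at an unadjusted p under 0.05, 13 higher and 1 lower). The median was 0.43, with 4 negative, and over all tested genes 2.69% were called higher and 6.05% lower. The 8 included Akap5 (log2 change 0.57 ± 0.14, edgeR adjusted p = 0.0336) and Rims2 (log2 change 0.47 ± 0.11, edgeR adjusted p = 0.0296). Camk2a, also among the 8 and named after its values were seen, stands in the cortical marker list too. Orai1 (log2 change -0.82 ± 0.26, edgeR adjusted p = 0.0750) and Stim1 (log2 change 0.21 ± 0.08, edgeR adjusted p = 0.1585) did not pass.

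A mean of log2(FPKM + 1) over the 29 members, relative to the sham mean, stood at -0.18, -0.13 and -0.31 in ICH+P7C3-A20 1, 2 and 3, at -0.52, -0.52 and -0.47 in ICH 1, 2 and 3, and at 0.00, -0.13 and 0.13 in sham 1, 2 and 3. The same mean over 14 pan-neuronal markers stood at 0.01, -0.15 and -0.41 in ICH+P7C3-A20, at -0.49, -0.53 and -0.53 in ICH and at -0.01, 0.09 and -0.07 in sham. Members minus markers gave -0.19, 0.02 and 0.11 in ICH+P7C3-A20, -0.03, 0.02 and 0.06 in ICH and 0.01, -0.22 and 0.21 in sham. These differences overlapped among the 3 groups, with ICH inside the range of the other groups.

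**Figure D5:**
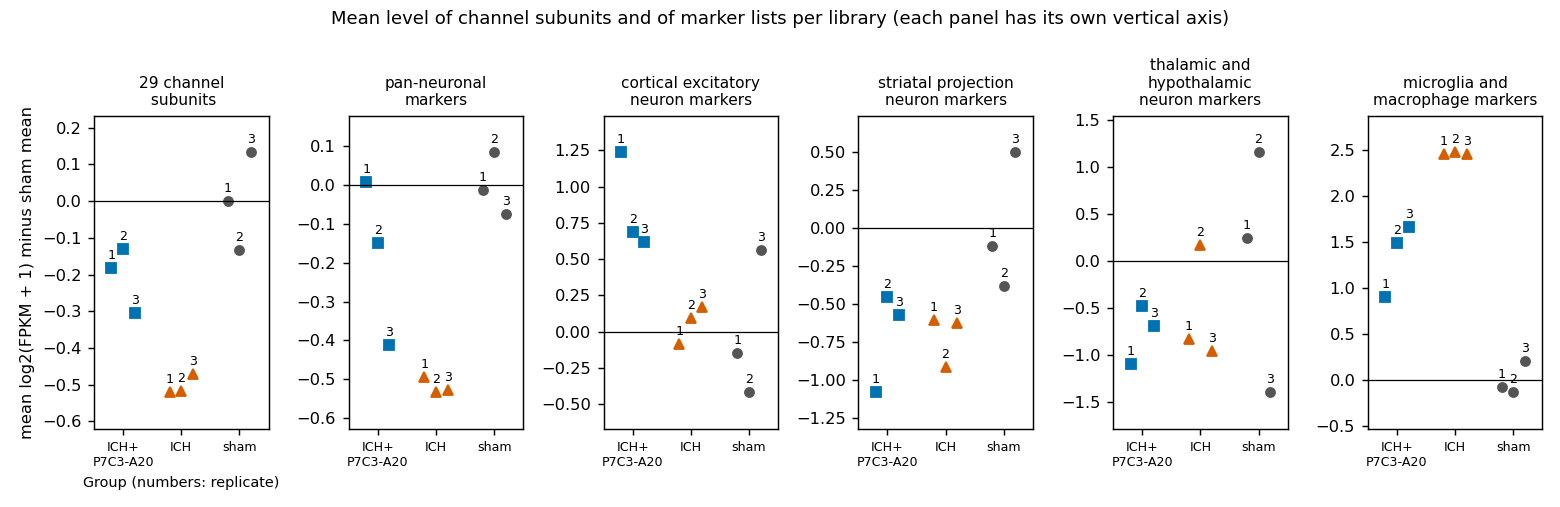
Mean log2(FPKM + 1) per library relative to the sham mean, for the 29 subunits with a mean FPKM of at least 1 and for 5 marker lists, with replicate numbers beside the points (each panel has its own vertical axis). The subunits and the pan-neuronal markers are lowest in the 3 ICH libraries, cortical markers are highest in ICH+P7C3-A20 1, and microglia and macrophage markers are highest in ICH.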

How the data were processed

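Polyadenylated RNA from 9 mouse brains was sequenced, per the labels' protocols. The submitters' processing notes name cutadapt 1.9, HISAT2 2.0.4 and StringTie 1.3.4d, without a role or order for each. The authors deposited 1 table with an FPKM and an estimated count per gene and library, per the file headers. The sources used here name neither the genome build nor the step that made the counts. All deposited estimated counts are whole numbers, so rounding changed none.

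Levels are FPKM as deposited. Tests used the estimated counts with edgeR 4.0.16 (TMM scaling, filterByExpr with a minimum count of 10 and a minimum total of 15, robust quasi-likelihood fit of 3 group means over 9 libraries with 6 residual degrees of freedom), in R 4.3.3. P-values were adjusted by Benjamini-Hochberg over 21900 genes, with calls at 0.05. Per the design text, the replicates are 3 mice drawn at random from each group. No pairing by replicate number was seen in correlations of the libraries, and the main fit used none. Library totals of 51537047 to 63324728 set the counting precision, and the 3 libraries per group set how well the spread between mice is known.

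Members follow the name rule. Single values of 2 members are not reported here, and both stay in the counts, sums and medians. Values per library are given for up to 20 called members in order of adjusted p and for the most abundant member of each class, and up to 4 genes per partner list by smallest p in ICH against sham. Members and lists were chosen with earlier results of these data known. Alternatives were other scalings, no filter, DESeq2 1.42.0, limma 3.58.1 on log2(FPKM + 1), log2(FPKM + 0.1) and quantile-normalized values, a replicate block, the compared groups alone and leaving out each library. On simulated counts for 21900 genes with known changes, edgeR recovered 14.9%, 50.7% and 87.9% of changes of 1.5-, 2- and 4-fold in ICH against sham, 20.9%, 59.7% and 93.9% in ICH+P7C3-A20 against ICH, and 8.96%, 50.7% and 78.8% in ICH+P7C3-A20 against sham. Only 67, 67 and 66 genes were changed by these folds in each simulated comparison. In the real data 5701, 1914 and 1165 genes were called in the 3 comparisons. The adjustment of p-values depends on how many genes change, so these rates do not give the recovery in the real data. Of the simulated ICH against sham calls, 5.56% were false with edgeR and 28.2% with DESeq2.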

Additional observations from a re-analysis of the deposited data

How the results depend on the processing

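In ICH against sham 22 members were called. The count was 11 with limma on log2(FPKM + 1) and 13 on log2(FPKM + 0.1), 19 to 25 under the other settings, and 14 to 22 without single libraries. In ICH+P7C3-A20 against ICH 11 were called. The count was 7 with library totals, 1 with limma on log2(FPKM + 1), 1 on log2(FPKM + 0.1) and 2 on quantile-normalized values, 9 to 16 under the others, and 0 to 12 without single libraries. In ICH+P7C3-A20 against sham 1 was called. The count was 3 with RLE size factors, 3 without a filter, 6 with DESeq2, 0 with each of the 3 limma fits, 0 with the compared groups alone, and 1 to 5 without single libraries. The cause of these differences was not tested. With a replicate block 20, 10 and 1 members were called in the 3 comparisons. Correlations of same-numbered libraries were -0.13 to 0.09, 0 of 9 pairs were over 0.1, and 2 of 9 libraries correlated best with their own number. No pairing by number was seen, though with 3 libraries a group this check could miss a shared batch. Apart from leaving out libraries, single members kept their direction and side of the threshold in 936 results, while 73 lost and 29 gained a call, 15 uncalled values near 0 changed sign, and no called change reversed. Low counts limit what can be detected in the 10 tested members under 1 FPKM, of which 2 were called in ICH against sham.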
